A study of Mus musculus with 3 samples.

Results

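Cortical inhibitory interneurons are classed by the neuropeptides they release and by the calcium-binding proteins they fill with, and 10 genes of this kind were followed here in wild-type mouse cortical neurons. They comprise 7 peptide precursor genes (Sst, Npy, Vip, Cck, Tac1, Penk and Crh) and 3 genes for calcium-binding proteins (Pvalb, Calb1 and Calb2). The genes were taken by symbol, through the GENCODE annotation of each transcript, and are 10 of 18130 coding genes with a value. The value of a gene is that of 1 coding transcript, chosen for the highest product of mean TPM and exonic length.

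RNA of these cells was sequenced in 3 libraries of 1 group, with genotype WT and treatment CON, named replicates 1, 2 and 3 after their titles. Total RNA was purified with QIAgen RNeasy and libraries were made with the KAPA RNA HyperPrep kit. The age, strain and sex of the animals, the time in culture and whether the libraries came from separate cultures are not given in the sources used here, so the SD may hold technical spread only. There was no second condition, and the comparisons below are between genes inside each library and between libraries.

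Neuropeptides are made as longer precursors, cut in the secretory pathway, stored in dense-core vesicles and released to act on G protein-coupled receptors. Parvalbumin, calbindin and calretinin bind calcium through EF-hand loops and buffer it in the cytoplasm. In the adult cortex Pvalb, Sst and Vip mark largely separate interneuron classes, and Cck, Calb1 and Calb2 are also made by other neurons. Pvalb is known to appear late, after birth, in rodent cortex.

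The unit is TPM, which divides reads by transcript length and by the library total. Here the total runs over 84660 transcript entries that share reads, which makes the value of a single transcript lower than a TPM computed per gene. Depth was 36863385, 32876277 and 32187970 reads on the coding transcripts used in replicates 1, 2 and 3, and 3 reads on a 1 kb transcript were worth 0.059 to 0.069 TPM. In bulk RNA, fewer cells of a type and less RNA per cell cannot be told apart. Excitatory neuron genes were present in the same RNA, with 10 of 10 listed genes at a mean of at least 1 TPM, led by the kinase gene Camk2a at 130 ± 4.27 TPM, the vesicular glutamate transporter gene Slc17a7 at 89.98 ± 4.47 TPM and Nrgn at 88.9 ± 3.98 TPM, with Cux2 lowest at 4.49 ± 0.61 TPM (SD, n = 3).

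Of the 10 marker genes, 8 had a mean of at least 1 TPM, a level reached by 61.8% of all coding genes. With 1 transcript per gene, Sst and Cck were the highest, Calb1, Calb2 and Npy were intermediate, Tac1, Vip and Penk were low, and Pvalb and Crh rested on 6 to 18 reads per library. Summing all transcripts of a gene, which counts shared reads repeatedly, put Calb1 at 83.1 TPM, near Sst and Cck, and Tac1 at 22.6 TPM, above Npy. The median over all coding genes was 2.91 TPM, and over those with a mean of at least 1 TPM it was 8.29 TPM.

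Sst encodes somatostatin, an inhibitory peptide of interneurons that target dendrites. It was measured at 131.4, 108.4 and 79.7 TPM in replicates 1, 2 and 3, from 4035, 2806 and 2181 reads. Replicate 1 was the highest and replicate 3 the lowest, a ratio of 1.65. Its mean of 106.5 ± 25.9 TPM (SD, n = 3) exceeded that of 98.5% of coding genes. The transcript (gene ENSMUSG00000004366.4) lies on the minus strand of chromosome 16, from 23889581 to 23890844 on mm10, in 2 exons.

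Cck encodes cholecystokinin, a peptide of a class of basket cells that pyramidal neurons also transcribe. Its level was 88.3, 91.95 and 127.9 TPM in replicates 1, 2 and 3, from 3100, 2723 and 4001 reads. Here replicate 3 was the highest and replicate 1 the lowest. The mean was 102.7 ± 21.9 TPM (SD, n = 3), above 98.4% of coding genes. Its 3 exons (gene ENSMUSG00000032532.7) lie on the minus strand of chromosome 9, from 121489825 to 121495689.

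Sst and Cck together made up 92.8%, 90.03% and 93.0% of the summed TPM of the 7 peptide genes in replicates 1, 2 and 3. The sum itself moved little, at 236.7, 222.5 and 223.1 TPM, while its make-up did. Sst held 55.5%, 48.7% and 35.7% of it, and Cck held 37.3%, 41.3% and 57.3%. Sst was thus the larger in replicates 1 and 2 and Cck the larger in replicate 3.

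The promoters of the peptide genes are shown because the cyclic AMP response element was first worked out on peptide genes of this kind, Sst among them. The windows are the 120 bases before the RefSeq start on GRCm38.p6, read on the gene's strand, and capitals mark TGACG or its reverse complement CGTCA, searched on both strands.
Sst, chr16:23890845-23890964, minus strand: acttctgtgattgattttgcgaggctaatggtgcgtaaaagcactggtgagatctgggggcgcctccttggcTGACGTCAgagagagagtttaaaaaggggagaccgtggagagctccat
Cck, chr9:121495695-121495814, minus strand: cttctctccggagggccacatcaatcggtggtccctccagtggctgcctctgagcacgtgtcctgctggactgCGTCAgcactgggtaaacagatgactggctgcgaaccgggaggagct
Vip, chr10:5639098-5639217, plus strand: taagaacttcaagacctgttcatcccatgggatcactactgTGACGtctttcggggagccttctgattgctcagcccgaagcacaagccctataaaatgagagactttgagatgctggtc
The motif begins at position -48 in Sst, -47 in Cck and -79 in Vip, counted back from the start. In Sst the motif and its reverse complement overlap as the palindrome TGACGTCA. Of the 6 marker genes matched in the RefSeq table, 4 held the motif (Sst, Cck, Vip and Tac1), Npy and Pvalb did not, and 1 held the palindrome. Among 32851 promoters of the table, 11.7% held the motif in the same window and 1.24% the palindrome. Calb1, Calb2, Penk and Crh were not matched. These letters describe the windows only, and the 3 genes shown ranged in level from Sst at 106.5 TPM to Vip at 1.81 TPM.

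Npy encodes neuropeptide Y, made by many somatostatin and neurogliaform interneurons. The libraries gave 9.86, 11.9 and 8.55 TPM in replicates 1, 2 and 3, from 286, 291 and 221 reads. Replicate 2 was the highest and replicate 3 the lowest. Its mean of 10.1 ± 1.69 TPM (SD, n = 3) was above that of 73.3% of coding genes. Npy (ENSMUSG00000029819.6) occupies 4 exons on the plus strand of chromosome 6, from 49822710 to 49829507.

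Tac1 encodes the precursor of substance P and neurokinin A. Its level was 4.39, 5.19 and 3.77 TPM in replicates 1, 2 and 3, from 277, 276 and 212 reads, again with replicate 2 highest and replicate 3 lowest. The mean was 4.45 ± 0.71 TPM (SD, n = 3), above 56.9% of coding genes. The ratio of Npy to Tac1 was nearly the same in every library, at 2.24, 2.29 and 2.27. Counting alone gives Npy a coefficient of variation of 6.73% and Tac1 one of 6.87% in the library with the fewest reads. The ratio, at 2.27 ± 0.024, varied less than that, so it is not known as closely as its spread.

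Splicing of Tac1 sets which tachykinins the precursor holds, since exon 6 encodes neurokinin A and exon 4 is left out of other forms. The transcript used has 7 exons on the plus strand of chromosome 6, from 7554879 to 7562977 (gene ENSMUSG00000061762.12), and the optional exons are given from GRCm38.p6.
Tac1 exon 4, chr6:7557216-7557260, 45 bases: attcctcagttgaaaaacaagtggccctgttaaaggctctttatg
Tac1 exon 6, chr6:7559099-7559152, 54 bases: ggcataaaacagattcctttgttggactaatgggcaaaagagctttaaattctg
The form with both exons had 277, 276 and 212 reads in replicates 1, 2 and 3. The annotated form without exon 6 had 274, 275 and 210 reads, and the form without exon 4 had 242, 246 and 198. Nearly the same reads were listed under overlapping forms, so the level of each splice form could not be taken from these values. The same held for Pvalb, whose 2 transcripts were listed with the same reads.

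Vip encodes vasoactive intestinal peptide, which marks interneurons that mainly inhibit other interneurons. It was measured at 1.06, 3.17 and 1.19 TPM in replicates 1, 2 and 3, from 83, 209 and 83 reads. Replicate 2 stood apart, and its 95% exact Poisson interval of 2.75 to 3.63 TPM did not meet those of replicate 1 (0.845 to 1.31 TPM) or replicate 3 (0.948 to 1.48 TPM). Such intervals cover counting error only. The mean was 1.81 ± 1.18 TPM (SD, n = 3), and Vip (ENSMUSG00000019772.5) lies on the plus strand of chromosome 10, from 5639218 to 5647614, in 7 exons.

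Penk encodes the precursor of the enkephalins, opioid peptides. The libraries gave 1.59, 1.63 and 1.93 TPM in replicates 1, 2 and 3, from 118, 102 and 128 reads, with a mean of 1.72 ± 0.19 TPM (SD, n = 3). The libraries lay close together. Replicate 3 was nominally the highest, but its interval of 1.61 to 2.30 TPM overlapped those of replicate 1 (1.32 to 1.90 TPM) and replicate 2 (1.33 to 1.98 TPM). Penk (ENSMUSG00000045573.9) has 2 exons on the minus strand of chromosome 4, from 4133531 to 4138477, where exons of the opposite-strand gene A830012C17Rik overlap it over 157 bases. That gene was listed with 1, 0 and 0 reads in replicates 1, 2 and 3.

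Crh encodes corticotropin-releasing hormone, which some cortical interneurons make. Its level was 0.12, 0.32 and 0.13 TPM in replicates 1, 2 and 3, from 8, 18 and 8 reads. Replicate 2 was nominally the highest, but its interval of 0.187 to 0.499 TPM overlapped those of replicate 1 (0.051 to 0.233 TPM) and replicate 3 (0.057 to 0.261 TPM). The mean was 0.19 ± 0.11 TPM (SD, n = 3), above 27.7% of coding genes. Crh (ENSMUSG00000049796.4) lies on the minus strand of chromosome 3, from 19693401 to 19695396, in 2 exons.

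**Figure D1:**
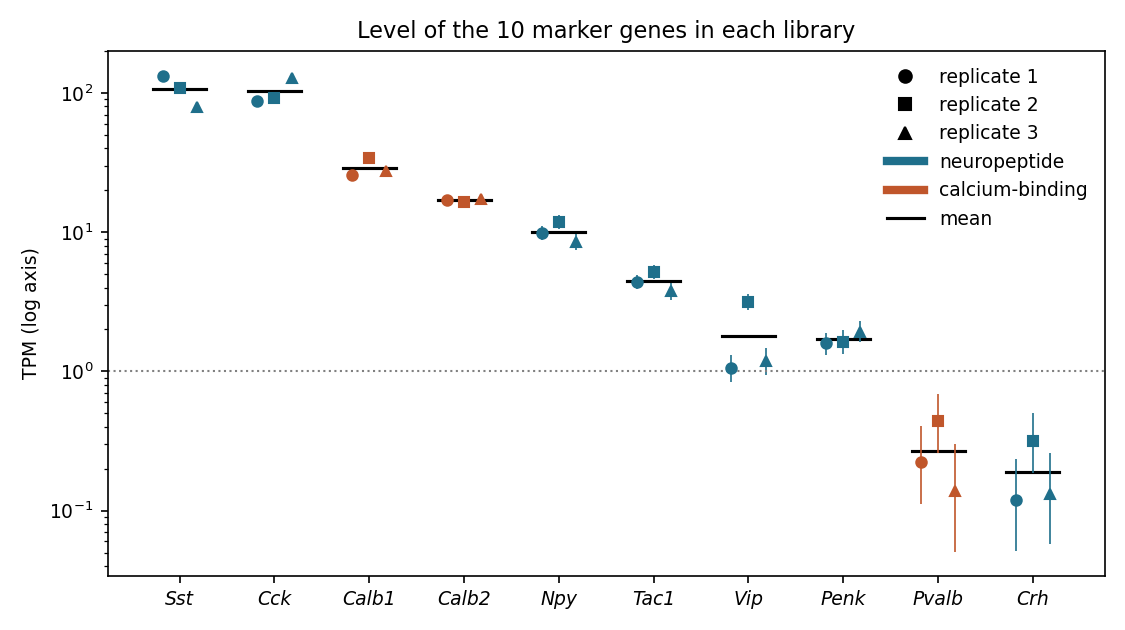
TPM of each marker gene in each library on a log axis, with points for replicates 1 to 3, thin bars for 95% exact Poisson counting intervals, a short line for the mean and a dotted line at 1 TPM. Sst and Cck sit near 106.5 and 102.7 TPM, and Pvalb and Crh lie lowest at 0.27 and 0.19 TPM with wide intervals.

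Among the calcium-binding genes, Calb1 was the highest, Calb2 the steadiest between libraries and Pvalb the lowest. Calb1 encodes calbindin, found in many interneurons and in some pyramidal neurons. It was measured at 25.9, 33.8 and 27.4 TPM in replicates 1, 2 and 3, from 5601, 6178 and 5287 reads, with a mean of 29.0 ± 4.23 TPM (SD, n = 3). Replicate 2 was the highest. Calb1 (ENSMUSG00000028222.2) spans 11 exons on the plus strand of chromosome 4, from 15881264 to 15908064. The annotation also lists retained-intron transcripts of Calb1 at 30.3 ± 3.28 and 23.8 ± 3.03 TPM, which overlap its exons.

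Calb2 encodes calretinin, a marker of bipolar interneurons and of Cajal-Retzius cells. Values were 17.01, 16.6 and 17.3 TPM in replicates 1, 2 and 3, from 1247, 1027 and 1127 reads, with a mean of 16.96 ± 0.32 TPM (SD, n = 3). The libraries differed by no more than 1.04-fold, and the coefficient of variation of 1.91% was below the 3.12% that counting alone gives in the library with the fewest reads. Calb2 (ENSMUSG00000003657.9) spans 11 exons on the minus strand of chromosome 8, from 110142539 to 110168206.

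Pvalb encodes parvalbumin, the marker of fast-spiking basket and chandelier cells. It was measured at 0.23, 0.44 and 0.14 TPM in replicates 1, 2 and 3, from 11, 18 and 6 reads. Replicate 2 was nominally the highest, and its interval of 0.259 to 0.690 TPM overlapped those of replicate 1 (0.112 to 0.403 TPM) and replicate 3 (0.051 to 0.300 TPM). The mean was 0.27 ± 0.15 TPM (SD, n = 3). Pvalb (ENSMUSG00000005716.16) lies on the minus strand of chromosome 15, from 78191117 to 78206400, in 5 exons.

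Inside each library, Calb1 exceeded Pvalb by 114.9, 77.5 and 198.9 times in replicates 1, 2 and 3. On the log2(TPM + 0.1) scale, which understates differences of low genes, Calb1 minus Pvalb was 6.39 ± 0.44 and Calb2 minus Pvalb was 5.62 ± 0.62 (two-sided exact sign-flip permutation p = 0.25 each, n = 3). Calb2 minus Calb1 was -0.76 ± 0.23, with the same sign in 3 of 3 libraries. With 3 libraries, 0.25 is the smallest p that this test can give, and it stayed 0.25 after Benjamini-Hochberg adjustment over the 3 pairs. A difference is therefore called beyond the spread here when it has the same sign in 3 libraries and its mean is larger than its SD, as was so for these 3 pairs.

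Ordered by mean TPM, the genes ran Sst, Cck, Calb1, Calb2, Npy, Tac1, Vip, Penk, Pvalb and Crh. Of the 9 neighbouring pairs, 7 differed beyond the spread and 2 did not. The pairs and their direction were taken from the means of these same libraries. The count and the p-values of these pairs therefore describe the order and do not test it. With summed transcripts Cck minus Calb1 was within the spread (0.29 ± 0.38 log2 units), and Vip minus Penk was beyond it (-1.26 ± 0.89). Sst minus Cck was 0.043 ± 0.65 log2 units, with values of 0.57, 0.24 and -0.68 in replicates 1, 2 and 3 (exact sign-flip p = 1, n = 3). With the same reads and the transcript lengths of a later annotation, where Sst has 721 and not 599 bases, it was -0.21. That shift follows from the lengths alone. The sign differed between libraries, so neither gene can be placed above the other. Vip minus Penk was -0.093 ± 0.88, with values of -0.54, 0.92 and -0.66 (exact sign-flip p = 1, n = 3), so Vip stood above Penk in replicate 2 and below it in the other libraries.

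With 1 transcript per gene, the widest steps were Penk minus Pvalb at 2.39 ± 0.70 and Cck minus Calb1 at 1.81 ± 0.39 log2 units, the second being a 3.60 ± 0.99-fold ratio. Tac1 minus Vip was 1.41 ± 0.65, Npy minus Tac1 1.16 ± 0.017, Calb1 minus Calb2 0.76 ± 0.23 and Calb2 minus Npy 0.75 ± 0.26. With summed transcripts Npy minus Tac1 was -1.16, Tac1 minus Vip 3.74 and Calb1 minus Calb2 2.28, so the order of the steps depends on this choice. Pvalb minus Crh was 0.33 ± 0.27, with values of 0.58, 0.37 and 0.032, and rests on few reads. It was within the spread without replicate 1 (0.20 ± 0.24) or without replicate 2 (0.30 ± 0.38), and was 1.07 with summed transcripts. For the 7 pairs beyond the spread the exact sign-flip p was 0.25, and 0.32 after Benjamini-Hochberg adjustment over the 9 pairs.

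**Figure D2:**
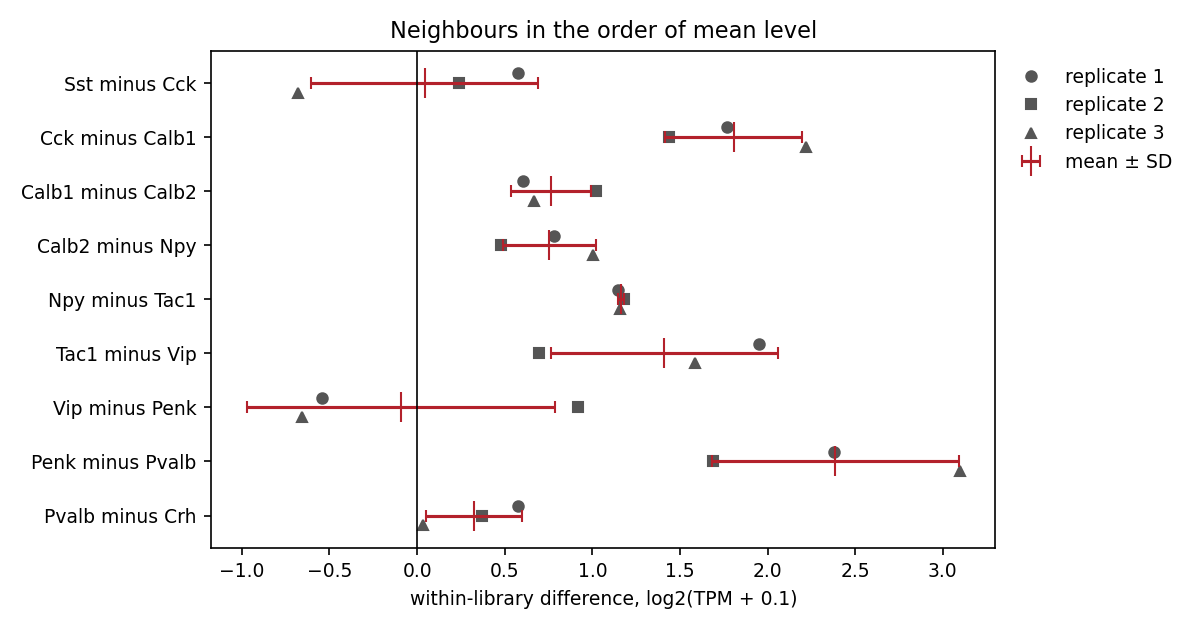
Within-library differences in log2(TPM + 0.1) between genes that are neighbours in the order of mean level, with 1 point per library and the mean ± SD. Sst minus Cck and Vip minus Penk have points on both sides of 0, and the points of Npy minus Tac1 nearly coincide at 1.16.

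The level of each gene was set beside Gad1, which encodes the main enzyme of GABA synthesis. Gad1 was measured at 84.9, 107.5 and 61.5 TPM in replicates 1, 2 and 3. Sst was 1.55, 1.01 and 1.30 times Gad1, a difference of 0.34 ± 0.31 log2 units (exact sign-flip p = 0.25, n = 3). It was -2.12 with summed transcripts, which raised Gad1 and left Sst and Cck, with 1 transcript each, unchanged. The difference was within the spread with the later transcript lengths for the same reads (0.071 ± 0.31), without replicate 1 (0.19 ± 0.26) or without replicate 3 (0.32 ± 0.44). Cck was 1.04, 0.86 and 2.08 times Gad1, which did not exceed the spread (0.30 ± 0.67, exact sign-flip p = 0.75, n = 3), and this difference was -2.16 with summed transcripts and -0.084 without replicate 3.

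The other genes lay below Gad1 in 3 of 3 libraries. Calb1 minus Gad1 was -1.51 ± 0.30 log2 units, Calb2 minus Gad1 -2.28 ± 0.43 and Npy minus Gad1 -3.03 ± 0.18. Tac1 lay at -4.19 ± 0.18, Penk at -5.51 ± 0.53, Vip at -5.60 ± 0.58, Pvalb at -7.90 ± 0.22 and Crh at -8.22 ± 0.33. Npy had 0.122 ± 0.015 times the level of Gad1 with 1 transcript per gene. With summed transcripts the values were Calb1 at -2.45, Calb2 at -4.73, Npy at -5.49, Tac1 at -4.32, Penk at -6.80, Vip at -8.06, Pvalb at -9.61 and Crh at -10.7 log2 units. The sum counts shared reads repeatedly and raised Gad1, while Calb2, Npy, Vip and Crh, with 1 transcript each, kept their values. Those genes could therefore only stay below Gad1. Each difference with 1 transcript per gene has an exact sign-flip p of 0.25, or 0.28 after Benjamini-Hochberg adjustment over the 10 genes. The sizes for Pvalb and Crh also depend on the pseudocount.

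The libraries did not move all marker genes the same way. Of the 8 with a mean of at least 1 TPM, 4 were highest in replicate 2 (Calb1, Npy, Tac1 and Vip), as were 40.4% of the 11204 coding genes at that level. Of the same 8, 3 (Sst, Npy and Tac1) were lowest in replicate 3, against 40.9% of those genes, and 3 (Cck, Calb2 and Penk) were highest in replicate 3, against 31.4%. With Pvalb and Crh included, 6 of 10 were highest in replicate 2 and 4 of 10 lowest in replicate 3. These shares lie near the backgrounds and mark no direction common to the marker genes.

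Genes of GABA synthesis, transport and breakdown had 1 order. The 4 listed genes, Gad1, Gad2, Slc32a1 and the GABA breakdown gene Abat, were each highest in replicate 2 and lowest in replicate 3. Their summed level was 174.7, 216.9 and 137.7 TPM in replicates 1, 2 and 3. Of this, Abat held 41.6, 49.8 and 39.3 TPM. The second synthesis gene Gad2 had 24.7, 34.2 and 20.7 TPM. The vesicular GABA transporter gene Slc32a1 had 23.5, 25.5 and 16.3 TPM. Npy and Tac1 had that order too, Pvalb had it on few reads, and Sst shared only the low value in replicate 3. The GABA list was chosen with earlier results of these data known, so its order is a description and not a test. The share of all coding genes that hold both places, highest in replicate 2 and lowest in replicate 3, is not given here. Whether the GABA genes differ from the marker genes in this was therefore not tested.

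**Figure D3:**
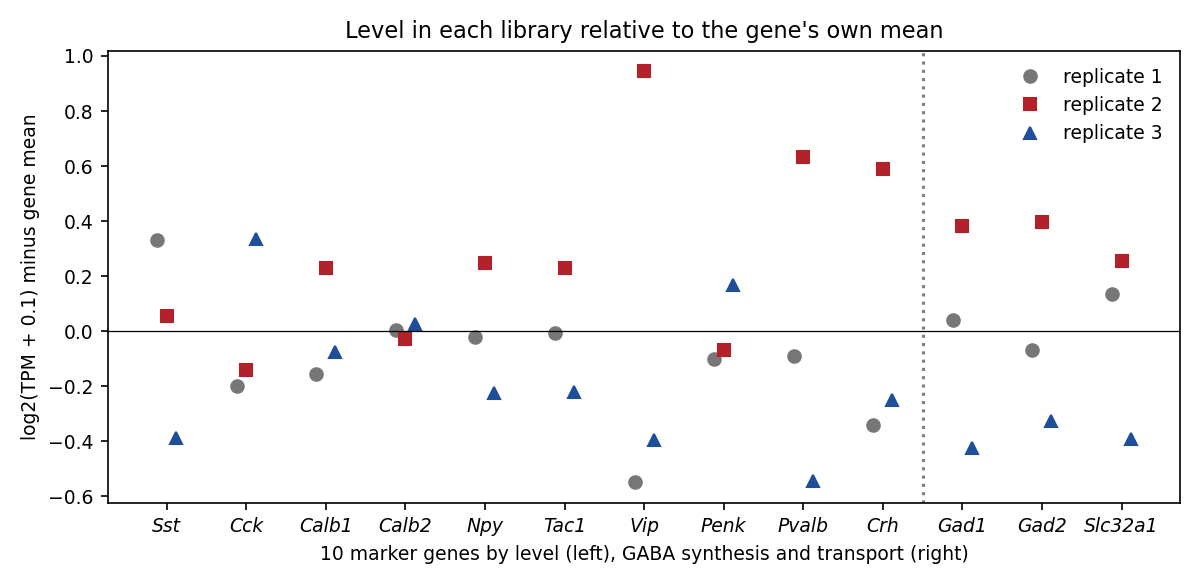
Level of each marker gene and of Gad1, Gad2 and Slc32a1 in each library, as log2(TPM + 0.1) minus the mean of that gene, with 1 symbol per replicate. The 3 GABA genes are highest in replicate 2 and lowest in replicate 3, whereas Cck is highest in replicate 3 and Calb2 hardly moves.

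Replicate 3, where Cck was highest and Penk and Calb2 nominally so, also had the highest summed levels of astrocyte and oligodendrocyte lineage genes. The sum of 14 peptide processing genes, given below, was highest there too, but the genes did not share this. Of the 14, 6 were highest in replicate 3 and 6 in replicate 2. Their median level was 54.01, 58.2 and 54.01 TPM in replicates 1, 2 and 3, and so highest in replicate 2. The summed level of 8 astrocyte genes was 425, 452 and 517 TPM in replicates 1, 2 and 3. Of these, 8 of 8 had a mean of at least 1 TPM and 5 of 8 were highest in replicate 3, beside 31.4% of all coding genes at that level. Slc1a3 led at 184 ± 19.1 TPM, followed by Aldoc at 128 ± 21.4 and Slc1a2 at 59.6 ± 5.45 TPM, with S100b lowest at 3.16 ± 0.78 TPM. The summed level of 8 oligodendrocyte lineage genes was 67.95, 50.6 and 84.8 TPM. Of these, 7 of 8 had a mean of at least 1 TPM and 5 of 7 were highest in replicate 3, beside the same 31.4%. Pdgfra, a gene of oligodendrocyte precursors, had 11.5, 4.96 and 18.4 TPM, Olig1 stood at 34.4 ± 2.91 TPM, Olig2 at 15.95 ± 6.36 TPM and Mog lowest at 0.029 ± 0.017 TPM. The part of these cells in the levels of Cck, Penk and Calb2 was not tested.

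Spread between libraries differed widely among the marker genes. The median SD of log2(TPM + 0.1) was 0.23 over the 8 marker genes that reached a mean of 1 TPM, against 0.11 over all 11204 coding genes at that level. Vip had an SD of 0.82, larger than that of 99.8% of the 2895 genes within 2-fold of its level. Sst had an SD of 0.36, larger than 99.3% of 707 such genes, and Cck one of 0.29, larger than 97.8% of 743. Counting alone gives Sst a coefficient of variation of 2.14% in the library with the fewest reads, against 24.3% measured.

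At the other end, the SD of Calb2 was 0.027, and 4.99% of genes of like level had a smaller one. Npy had an SD of 0.24 and Tac1 one of 0.23, larger than 94.0% and 89.8% of genes of like level. Calb1, at 0.20, exceeded 90.6%, and Penk, at 0.15, exceeded 52.7%.

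**Figure D4:**
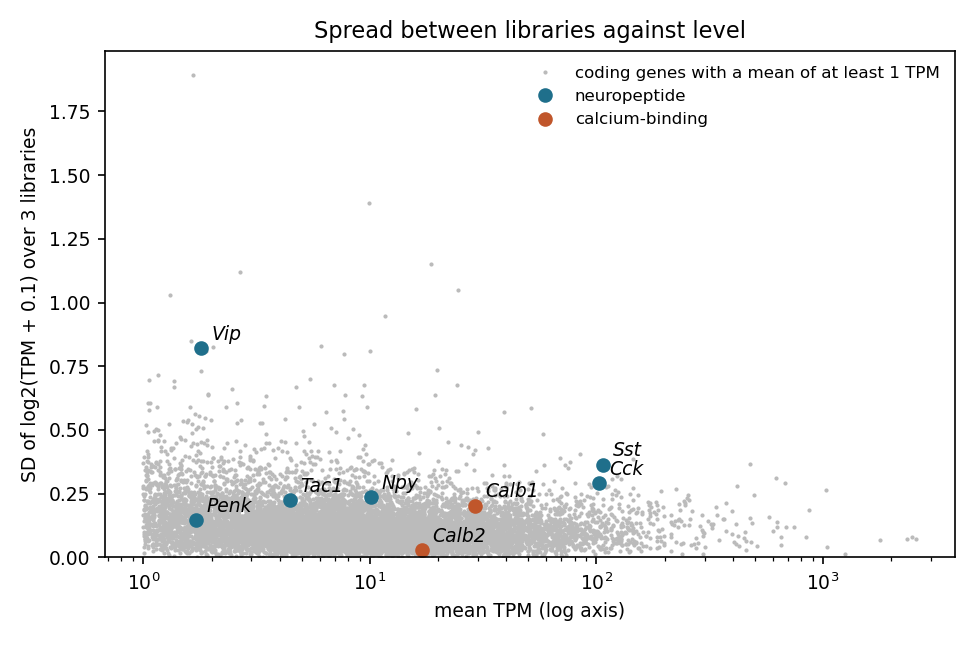
SD of log2(TPM + 0.1) over the 3 libraries against mean TPM (log axis) for the 11204 coding genes that reached a mean of 1 TPM, with the marker genes named. Vip, Sst and Cck lie above most genes of their level, and Calb2 lies at the lower edge with an SD of 0.027.

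Likeness in pattern was measured as the root mean square distance between centred log2 values over the 3 libraries, among the 4868 coding genes that reached a mean of 10 TPM. Nearest to Sst were Lss, a sterol synthesis gene, at 0.012, the ribosomal protein gene Rps10 at 0.014 and Mvk, the mevalonate kinase gene, at 0.017. Gad1 lay at 0.25 from Sst, Gad2 at 0.31 and Slc17a7 at 0.24, where the median distance over the 4868 genes compared was 0.29. Nearest to Cck were Stmn1 at 0.017, Mrpl52 at 0.021 and Snrnp27 at 0.026. Nearest to Calb1 were St8sia3 at 0.0034, Ildr2 at 0.0061 and Vim, an intermediate filament gene, at 0.010. A pattern over 3 libraries is easily shared, and 36 genes lay within 0.1 of Sst, 101 within 0.1 of Cck and 661 within 0.1 of Calb1. Of the 50-mers of Rps10 and Stmn1, 42.2% and 57.6% were unique in the genome, so their values are uncertain, whereas those of the 10 marker genes were 100% unique.

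Receptors for the peptides were compared with their ligands. Of 20 receptor genes, 9 had a mean of at least 1 TPM, and their summed level was steady at 45.6, 46.9 and 46.0 TPM in replicates 1, 2 and 3. For somatostatin 4 of 5 receptor genes reached 1 TPM, for tachykinins 0 of 3, for neuropeptide Y 1 of 4, and for VIP, cholecystokinin, enkephalin and CRH 1 of 2 each.

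Sst stood at 17.9 ± 3.06 times the level of Sstr2, its highest receptor gene, which had 6.43, 5.77 and 5.50 TPM in replicates 1, 2 and 3. Cck stood at 11.2, 10.9 and 11.9 times Cckbr, which encodes the brain type cholecystokinin receptor and had 7.86, 8.45 and 10.8 TPM. Peptide and receptor gene were therefore both highest in replicate 3 for cholecystokinin. Tac1 stood at 6.09 ± 0.98 times Tacr3, which was itself at 0.73 ± 0.04 TPM.

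For the remaining peptides the receptor gene was of similar level or higher, except for Vip in replicate 2. Npy stood at 0.81 ± 0.06 times Npy1r, which led all 20 receptor genes with 12.04, 13.7 and 11.5 TPM in replicates 1, 2 and 3. Penk was at 1.03 ± 0.23 times Oprd1, the delta opioid receptor gene, which averaged 1.69 ± 0.18 TPM. Vip was at 0.81, 2.42 and 0.75 times Vipr1, which averaged 1.39 ± 0.16 TPM. Crh was at 0.040 ± 0.024 times Crhr1, which had 4.98, 4.66 and 4.81 TPM. Ligand and receptor levels are of RNA, compared per transcript length, and say nothing of protein.

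**Figure D5:**
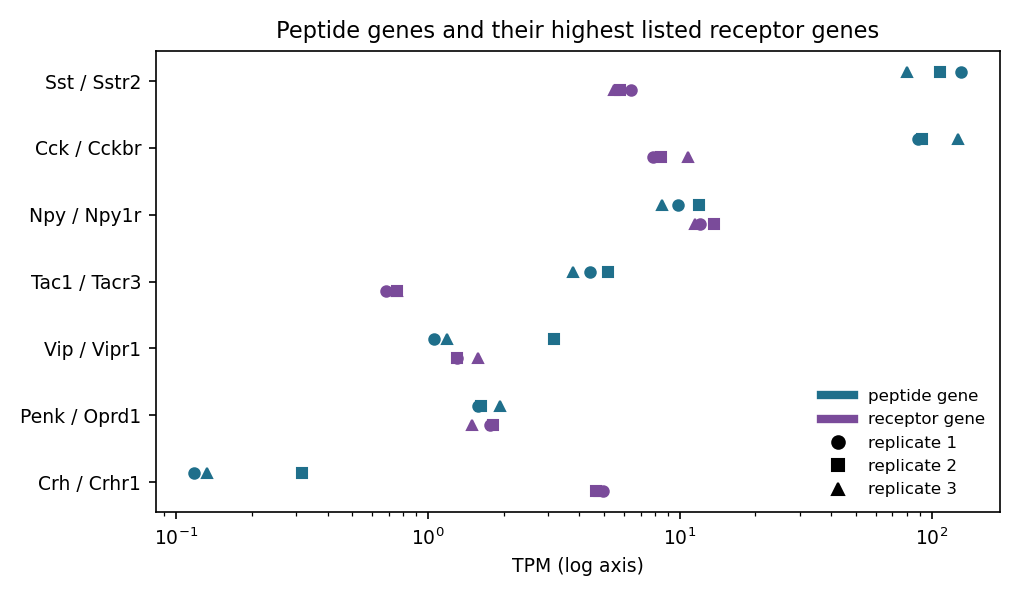
TPM (log axis) of each peptide gene and of its receptor gene with the highest mean, with 1 point per library, peptide genes above and receptor genes below within each row. Sst, Cck and Tac1 are higher than their receptor genes in every library, and Crh, at a mean of 0.19 TPM, is lower than Crhr1, at a mean of 4.82 TPM.

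The machinery that cuts and stores peptides was well represented. All 14 listed genes had a mean of at least 1 TPM, and their summed level was 1257, 1357 and 1433 TPM in replicates 1, 2 and 3. Cpe, the carboxypeptidase that trims peptides, led at 474 ± 49.95 TPM, followed by the granule genes Scg5 at 347 ± 16.4 TPM and Chgb at 89.5 ± 4.42 TPM. Pcsk5 was lowest at 1.51 ± 0.33 TPM.

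Markers of other cells that make these gene products were read beside them. Calb2 is a marker of Cajal-Retzius cells, and 3 of 8 genes on a list for those cells had a mean of at least 1 TPM. Reln, which interneurons also express, had 8.86, 11.2 and 6.45 TPM in replicates 1, 2 and 3, Cxcl12 3.48 ± 0.17 TPM and Ndnf 1.62 ± 0.29 TPM. The defining transcription factor genes were near 0, with Trp73 at 0.052 TPM, Lhx5 at 0.049 TPM, Lhx1 at 0.020 TPM, Ebf2 at 0.092 TPM and Ebf3 at 0.030 TPM. The summed level of the list, mostly Reln, was 13.96, 16.7 and 11.9 TPM. The part of Cajal-Retzius cells in the level of Calb2 was not tested.

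Tac1 and Penk are also known from projection neurons of the striatum. Of 9 genes on a striatal list, 7 had a mean of at least 1 TPM, and the summed level was 30.5, 31.6 and 25.9 TPM in replicates 1, 2 and 3. Adcy5 stood at 7.63 ± 0.69, Foxp1 at 6.96 ± 1.45, Pde10a at 5.50 ± 0.27 and Bcl11b at 4.32 ± 0.90 TPM, genes that cortical neurons express too. Of more restricted markers, Ppp1r1b was at 1.58 ± 0.11, Rgs9 at 1.38 ± 0.28, Drd2 at 0.91 ± 0.11 and Adora2a at 0.080 ± 0.036 TPM. Penk itself was at 1.72 TPM and Tac1 at 4.45 TPM. Drd1 had 1.23, 0.97 and 0.80 TPM in replicates 1, 2 and 3. The part of striatal cells in the levels of Tac1 and Penk was not tested.

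Microglial and vascular genes were scarce. Of 6 microglial genes 1 had a mean of at least 1 TPM, Aif1 at 1.03 ± 0.43 TPM, with P2ry12 at 0.13 TPM, Csf1r at 0.099 TPM and Tmem119 listed at 0. Of 6 endothelial and mural genes 2 did, Acta2 at 3.07 ± 0.85 TPM and Pdgfrb at 1.08 ± 0.31 TPM, with Kdr at 0.37 TPM and Cldn5 listed at 0.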

How the data were processed

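The 3 libraries form 1 group. The authors deposited 1 table of TPM values per transcript of GENCODE mouse release M4, per its header and name. The submitters' processing notes name STAR 2.5.3a, FastQC 0.11.2, Subread 1.4.6 and featureCounts, and the build mm10. Their settings are not given in the sources used here.

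Of 84660 transcripts, 98.1% were matched by identifier to GENCODE M21. TPM times exonic length, with M21 exons set to the transcript ends in the deposited table, was a whole multiple of 1 constant per library (tolerance 0.01 read) for 18 of 18 transcripts of the marker genes, which gave the reads.

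Differences are in log2(TPM + 0.1) within a library, with two-sided exact sign-flip permutation tests and Benjamini-Hochberg adjustment. No count model was fitted, since there was 1 group. Uniqueness was searched on GRCm38 with 50-mers taken every 10 bases. The statistics were tested on simulated data. Genes and lists were chosen with earlier results of these data known. Named are the 10 marker genes, 3 GABA genes, the highest receptor of each peptide, the 3 highest and the lowest of every other list, all Cajal-Retzius and striatal genes, and the 3 genes most like each of the 3 highest markers. Abat, the remaining gene of the GABA list, is named outside this rule. Some genes that this rule names are not reported here. Sequences are from RefSeq, GRCm38.p6.

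Alternatives were pseudocounts of 1 and 0.01, the transcript with the highest TPM, the sum over transcripts, other minimum levels, rescaling to nuclear coding genes and leaving out each replicate. M21 transcript lengths were added after seeing the data. Python 3.11.15, numpy 2.4.6, pandas 2.3.3, scipy 1.17.1 and matplotlib 3.10.9 were used.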

Additional observations from a re-analysis of the deposited data

How the results depend on the processing

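Of 192 recomputed differences, 183 kept their direction and 9 reversed. Of those 183, 6 no longer exceeded the spread and 3 newly did. Some recomputed differences could not change, such as those limited to pairs with both means of at least 1 TPM. For pairs of genes with 1 transcript each, the other transcript choices also repeat the reported value. Calb1 and Calb2 were counted in both the neighbouring and the calcium-binding pairs. The count of 183 therefore overstates how far the differences withstood the alternatives. The 11 recomputed counts stayed within 1.5 times the reported ones, and 6 rather than 8 genes passed a minimum of 2 TPM. With M21 lengths for the same reads, where Sst is longer, Sst minus Cck was -0.21 and Sst minus Gad1 0.071. These shifts follow from the lengths alone. With the sum over transcripts, which counts shared reads repeatedly, Cck minus Calb1 was 0.29, within the spread, and Vip minus Penk -1.26, beyond it. Under the same sum Npy minus Tac1 was -1.16, Sst minus Gad1 -2.12 and Cck minus Gad1 -2.16.

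Where 1 replicate was left out, beyond the spread means the same sign in the remaining libraries and a mean larger than its SD, a weaker rule. Sst minus Cck then ran from -0.22 to 0.40, negative without replicate 1 or replicate 2 and beyond the spread without replicate 3. Vip minus Penk ran from -0.60, beyond the spread without replicate 2, to 0.19, and was positive without replicate 1 or replicate 3. Cck minus Gad1 ran from -0.084 (without replicate 3) to 0.56. Sst minus Gad1 ran from 0.19 to 0.50, within the spread without replicate 1 or replicate 3. Pvalb minus Crh ran from 0.20 to 0.47, within the spread without replicate 1 or replicate 2. Rescaling to nuclear coding genes moved no library by more than 0.030 log2 units. No paired analysis was possible because there is 1 group. Pvalb and Crh, at 6 to 18 reads, are limited by depth.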

Other observations

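Other genes listed for interneurons ranged widely in level, and bulk RNA does not show which cells made them. Of 20 further peptide and marker genes, 16 had a mean of at least 1 TPM, led by Id2 at 70.8 ± 2.84 TPM, Nxph1 at 29.8 ± 5.31 TPM and Grp, the gastrin-releasing peptide gene, at 15.8 ± 3.25 TPM, with Cartpt lowest at 0.23 ± 0.03 TPM (SD, n = 3). Of these 16, 13 were highest in replicate 2 and 11 lowest in replicate 3, beside 40.4% and 40.9% of all coding genes at that level. Of 16 interneuron lineage factors, 14 had a mean of at least 1 TPM, led by Nr2f1 at 24.8 ± 1.55, Satb1 at 24.5 ± 2.41 and Lhx6 at 7.72 ± 1.60 TPM. Nkx2-1, a factor of interneuron progenitors, was lowest at 0.087 ± 0.026 TPM. Reln and Ndnf are on both the Cajal-Retzius and the interneuron list.

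Of 16 other genes for EF-hand calcium sensors and buffers, 13 had a mean of at least 1 TPM. The calmodulin genes Calm2 and Calm3 stood at 837 ± 47.5 and 449 ± 23.5 TPM and the visinin-like gene Vsnl1 at 256.4 ± 22.5 TPM, and Scgn, the secretagogin gene, was lowest at 0.085 ± 0.023 TPM. Of the 50-mers of Calm2, 63.7% were unique, so its value is uncertain. S100b is on both this list and the astrocyte list.

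Of the 11204 coding genes that reached a mean of 1 TPM, 2 were at least 2-fold higher in replicate 2 than in each of the other libraries. They were Vip, at 2.66-fold the higher of the others, and Serpina3n, with 4.25, 12.7 and 5.97 TPM from 450, 1137 and 563 reads in replicates 1, 2 and 3. Serpina3n was chosen after its values were seen.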
